A study of Mus musculus with 30 samples.

Results

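The 10 genes described here encode enzymes that remove superoxide and peroxides: the superoxide dismutases Sod1, Sod2 and Sod3, catalase (Cat), the glutathione peroxidases and their relatives Gpx1, Gpx3, Gpx4, Gpx7 and Gpx8, and the peroxiredoxin Prdx4. They were taken by symbol from the 54232 gene IDs counted in each library. The rule itself uses no measured value, but the list was chosen with earlier results of these data known. All 10 passed the filter on low counts in every comparison. RNA was sequenced from 30 preparations of mouse pancreatic islets, the endocrine cell clusters that hold the insulin-making beta cells. Every mouse was a male wild-type C57BL/6N animal. In vivo, mice received 1 mM cadmium chloride for 6 weeks (4 libraries, against 5 from vehicle mice) or for 18 weeks (5 libraries, against 6 from vehicle mice). Ex vivo, isolated islets were kept for 96 hours with 0.5 uM cadmium chloride (5 libraries) or vehicle (5 libraries). The labels leave out the route of dosing, the ages of the mice and whether the libraries of a group came from separate or pooled animals. The p-values therefore rest on differences among libraries of 1 group, and these may be technical. The design asks what cadmium, a metal that binds thiols, did to islet transcripts in each setting.

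Superoxide dismutases turn superoxide into hydrogen peroxide, which catalase splits into water and oxygen and which glutathione peroxidases and peroxiredoxins reduce with electrons from thiols. Each enzyme works in its own place: SOD1, with copper and zinc, mostly in the cytosol, SOD2, with manganese, in the mitochondrial matrix, SOD3 outside the cell, catalase in peroxisomes, GPX3 in extracellular fluid, and GPX7, GPX8 and PRDX4 in the endoplasmic reticulum, where disulfide formation makes peroxide. Rodent beta cells are known for low catalase and low cytosolic glutathione peroxidase compared with liver.

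The glutathione peroxidase family divides by 1 codon. At the catalytic site GPX1, GPX3 and GPX4 carry selenocysteine, written by a TGA that would otherwise end the protein, while GPX7 and GPX8 carry cysteine. The stretches printed here show that codon in capitals with 12 bases on each side, 5′ to 3′, from the transcripts of GENCODE release M21 (build mm10). The TGA lay at chr9:108339451-108339453 in Gpx1, chr11:54907256-54907258 in Gpx3 and chr10:80054737-80054739 in Gpx4, each on the plus strand and each the 1 selenocysteine position annotated in its gene. The cysteine codon lay at chr4:108403430-108403432 in Gpx7 and chr13:113045661-113045663 in Gpx8, both on the minus strand.
Gpx1: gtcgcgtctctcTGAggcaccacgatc
Gpx3: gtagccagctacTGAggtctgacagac
Gpx4: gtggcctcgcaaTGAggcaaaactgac
Gpx7: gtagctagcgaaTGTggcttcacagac
Gpx8: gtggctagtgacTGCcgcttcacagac
Gpx7 and Gpx8 shared 22 of these 27 bases, the most of any pair, and Gpx1 shared 13 with Gpx3 and with Gpx7, the fewest.

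Promoters (250 bases before to 50 after the start site, RefSeq, GRCm38.p6) were found for 9 of the 10 genes, not for Sod3. They were searched on both strands for the metal response element of MTF1, the zinc and cadmium sensing factor (TGCACNC or TGCGCNC), the antioxidant response element bound by NRF2 (TGACNNNGC), the FOXO element TGTTTAC and the endoplasmic reticulum stress element ERSE. These letters occur in 25.7%, 12.4%, 3.65% and 0.119%, in that order, of 32851 RefSeq promoters of that length. Only 3 of the 9 genes had a match, printed in capitals with 20 bases on each side: a metal response element in Prdx4 that begins at position -58 from the start site (chrX:155338492-155338538, minus strand), another in Gpx7 at -210 (chr4:108406897-108406943, minus strand), and an antioxidant response element in Sod1 at -56, read on the opposite strand (chr16:90220686-90220734, plus strand shown). A match is a run of letters and says nothing of binding.
Prdx4: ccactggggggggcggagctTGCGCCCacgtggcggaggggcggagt
Gpx7: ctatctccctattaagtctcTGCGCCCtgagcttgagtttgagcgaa
Sod1: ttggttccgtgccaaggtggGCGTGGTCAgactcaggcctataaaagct

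Libraries held 49564350 to 58366797 counts at 6 weeks, 9092759 to 51852364 at 18 weeks and 24197072 to 26549350 in culture. Of the 18-week libraries, vehicle 4, vehicle 6 and cadmium 5 were shallow, with 14751249, 9092759 and 21573301. All 10 beta cell markers were detected in every group, with 109700 to 266700 summed CPM (counts scaled to library size, with TMM factors) across the libraries. In vehicle libraries their sum was 234600 to 266700 CPM at 6 weeks, 127200 to 196700 CPM at 18 weeks and 139600 to 151100 CPM in culture. Exocrine RNA was also present in the fresh islets: 23 acinar marker genes took 1.5 to 17.9% of counts in the cadmium and 0.240 to 1.66% in the vehicle libraries at 18 weeks, and 3.41 to 7.55% and 2.50 to 4.60% in those at 6 weeks. In culture they took 0.00797 to 0.0121% with cadmium and 0.00782 to 0.0145% with vehicle. These are bulk samples, in which fewer cells of a type and less RNA per cell cannot be told apart.

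Per kb of exon, the order of the 10 genes was much the same with and without cadmium. The length used is that of all annotated exons of a gene joined, which is at least that of any single transcript. It was 3970 bases for Sod1, 10008 for Sod2 and 1813 for Gpx3, and the order of genes depends on it. In CPM alone, Sod1 stood above Gpx3 at 18 weeks (165 against 94.6 with cadmium, 139 against 94.5 with vehicle). Per kb, Gpx3 was the highest in all 6 groups, at 228 ± 17.6 CPM per kb of exon in cadmium (SD, n = 4) and 212 ± 10.8 in vehicle islets (SD, n = 5) at 6 weeks. It stood above 99.7% of 22706 expressed genes in both of those groups. Sod3 was the lowest in all 6 groups, at 0.154 ± 0.0555 CPM per kb in cadmium and 0.113 ± 0.0482 in vehicle islets at 18 weeks (SD, n = 5 and 6), above 11% and 9.59% of the same genes. Gpx1, the main cytosolic glutathione peroxidase, ranged from 32.0 to 47.6 CPM per kb between group means, and stood above at least 95.7% of genes in every group. Cat was at 3.02 to 6.25 CPM per kb, and so below Gpx1, Sod1 and Prdx4 in each group. The endoplasmic reticulum enzymes differed widely, with group means of 8.66 to 17.2 CPM per kb for Prdx4, 1.61 to 3.64 for Gpx8 and 0.927 to 1.52 for Gpx7. Gpx4, which reduces peroxidised phospholipids in membranes, had the least stable place, with 6.60 and 6.91 CPM per kb in cadmium and vehicle islets at 6 weeks, and 35.1 to 48.3 in the other 4 groups.

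**Figure D1:**
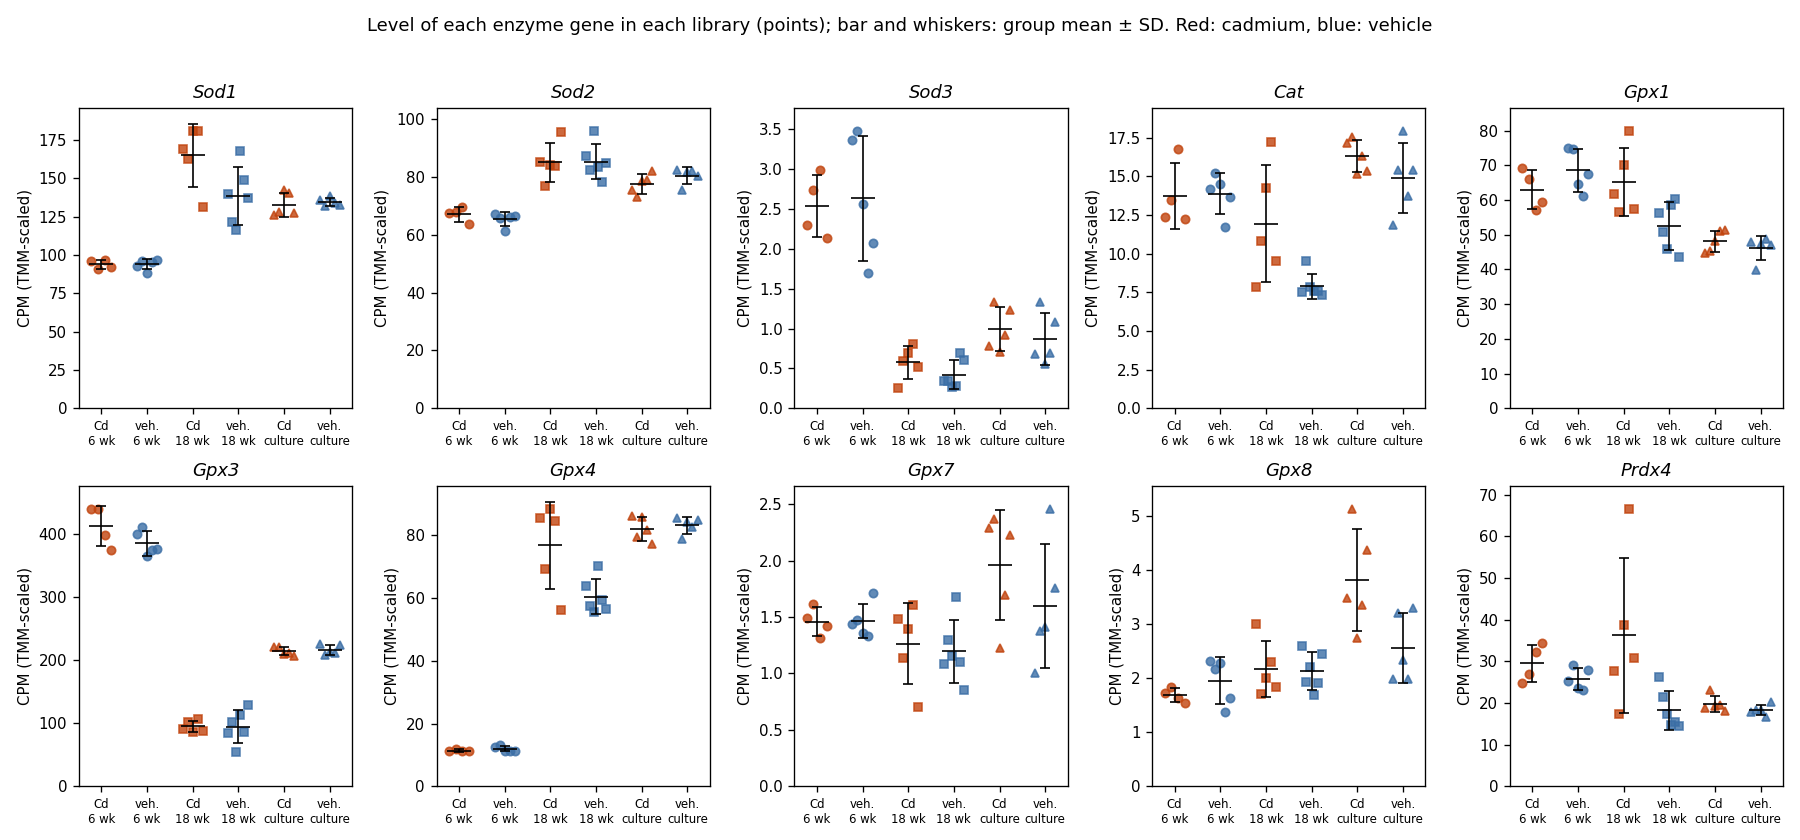
CPM on TMM-scaled library sizes for each of the 10 genes in each library, by group (Cd, cadmium, veh., vehicle), with the group mean and SD drawn in black and every vertical axis starting at 0. Cadmium and vehicle libraries overlap in every gene and setting, while Gpx4 is near 11 to 13 CPM at 6 weeks and above 55 CPM in all other libraries.

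After 18 weeks of cadmium, none of the 10 genes passed the test (edgeR quasi-likelihood, Benjamini-Hochberg adjusted p under 0.05), in a comparison that called 0.359% of 20911 genes (75 genes). All 10 estimates lay above 0, with a median log2 fold change of 0.28 against 0.00029 over all genes, but with the share of acinar markers as a term in the fit those of Sod2, Gpx3 and Gpx7 lay below 0 (-0.0078, -0.047 and -0.081), and that of Sod2 also turned under 5 other settings. The unadjusted p was under 0.05 for 5 of the 10 and for 3804 of all genes. The 5 were Prdx4, Cat, Gpx4, Gpx1 and Sod1, and in none of them did the cadmium libraries separate fully from the vehicle libraries.

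Among the dismutases, Sod1 stood at 169, 163, 181, 181 and 131 CPM in cadmium libraries 1 to 5, against 116 to 168 CPM (median 138) in the 6 vehicle libraries. Thus 3 of 5 cadmium libraries lay above all vehicle libraries, and cadmium 5, a shallow one, lay below the vehicle median. The log2 fold change was 0.26 ± 0.11 (SE, adjusted p = 0.240). The reads of Sod1 overlap Scaf4 on the opposite strand, which had 44426 counts over all libraries against 142888 for Sod1, and the strand setting of the counting is not given. Sod2 stood at 85.2 ± 6.74 CPM with cadmium (SD, n = 5) and 85.4 ± 5.98 CPM with vehicle (SD, n = 6), a log2 fold change of 0.00077 with a 95% interval of -0.15 to 0.15. Sod3 had 0.257 to 0.803 CPM with cadmium and 0.265 to 0.687 CPM with vehicle, and at this level its interval was wide, from -0.26 to 1.21.

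Cat stood at 7.83, 10.8, 14.2, 17.3 and 9.53 CPM in cadmium libraries 1 to 5, against 7.33 to 9.50 CPM (median 7.56) in the vehicle libraries. All but cadmium 1 lay above every vehicle library, and the spread among cadmium libraries was over 4 times that among vehicle libraries (SD 3.79 against 0.809 CPM). The log2 fold change was 0.60 ± 0.17 (SE, adjusted p = 0.140).

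Of the selenocysteine enzymes, Gpx4 stood at 85.7, 69.2, 88.6, 84.6 and 56.2 CPM in cadmium libraries 1 to 5, against 55.6 to 70.1 CPM (median 58.5) in vehicle libraries. Cadmium 1, 3 and 4 lay above every vehicle library, and the log2 fold change was 0.35 ± 0.11 (SE, adjusted p = 0.155). Gpx1 stood at 61.8, 56.6, 70.0, 80.0 and 57.4 CPM with cadmium and at 43.6 to 60.3 CPM (median 53.5) with vehicle. Again cadmium 1, 3 and 4 lay above every vehicle library, with a log2 fold change of 0.31 ± 0.11 (SE, adjusted p = 0.178). Gpx3, secreted and the highest of the 10 per kb of exon, stood at 94.6 ± 9.28 CPM with cadmium and 94.5 ± 25.9 CPM with vehicle (SD, n = 5 and 6). Its log2 fold change was 0.0080, with an interval of -0.36 to 0.37.

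Among the endoplasmic reticulum enzymes, Prdx4 had the largest estimate of the 10. Cadmium libraries 1 to 5 stood at 27.6, 17.5, 38.8, 66.6 and 30.7 CPM, and vehicle libraries at 14.5 to 26.2 CPM (median 16.3). Only cadmium 2 lay within the vehicle range, and cadmium 4 lay far above the highest vehicle library. The log2 fold change was 0.98 ± 0.27 (SE, 95% interval 0.41 to 1.55, adjusted p = 0.121), and 3.46% of all genes had a larger absolute change. Gpx7 and Gpx8, the cysteine enzymes, showed estimates of 0.096 and 0.040 with intervals of -0.39 to 0.59 and -0.35 to 0.43. The Prdx4 estimate lay outside both intervals, but its own interval overlapped both, and the genes were not tested against each other.

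Acinar markers were higher with cadmium in the same libraries. In the cadmium libraries 1 to 5 they took 3.33, 1.5, 8.73, 17.9 and 6.01% of counts, so that the order of the libraries by Prdx4 was their order by acinar share, from cadmium 2 at the low end to cadmium 4 at the high end. Cat was highest in the same cadmium 4 and next highest in cadmium 3, but its lowest library, cadmium 1, was the second lowest by acinar share. Sod1 and Gpx4 did not follow that order: both were lowest in cadmium 5, which had the third highest share, and Gpx4 was highest in cadmium 3. Among the vehicle libraries Prdx4 did not follow the share either. It was highest in vehicle 1 (26.2 CPM, share 0.636%) and lowest in vehicle 6 (14.5 CPM, share 0.819%). Of the 23 acinar markers 20 were called higher with cadmium, with a median log2 fold change of 3.43. Only cadmium 2 lay within the vehicle range of the share, so a fit with both terms cannot fully tell the share and cadmium apart. With the acinar share as a term in the fit, the estimates were 0.14 ± 0.19 for Prdx4, 0.18 ± 0.16 for Cat, 0.11 ± 0.12 for Gpx1, 0.19 ± 0.15 for Sod1 and 0.26 ± 0.15 for Gpx4 (SE, adjusted p = 1 for each), and no gene was called at all. Stellate and fibroblast markers were also higher in 9 of 10 cases, with 225 to 350 summed CPM with cadmium and 181 to 264 CPM with vehicle, as were macrophage markers in 10 of 11 and lymphocyte markers in 7 of 7 tested, none called. All 10 ductal markers were higher, 1 of them called, with 420 to 859 summed CPM with cadmium and 311 to 350 CPM with vehicle, which did not overlap. Their part in the results was not tested.

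**Figure D2:**
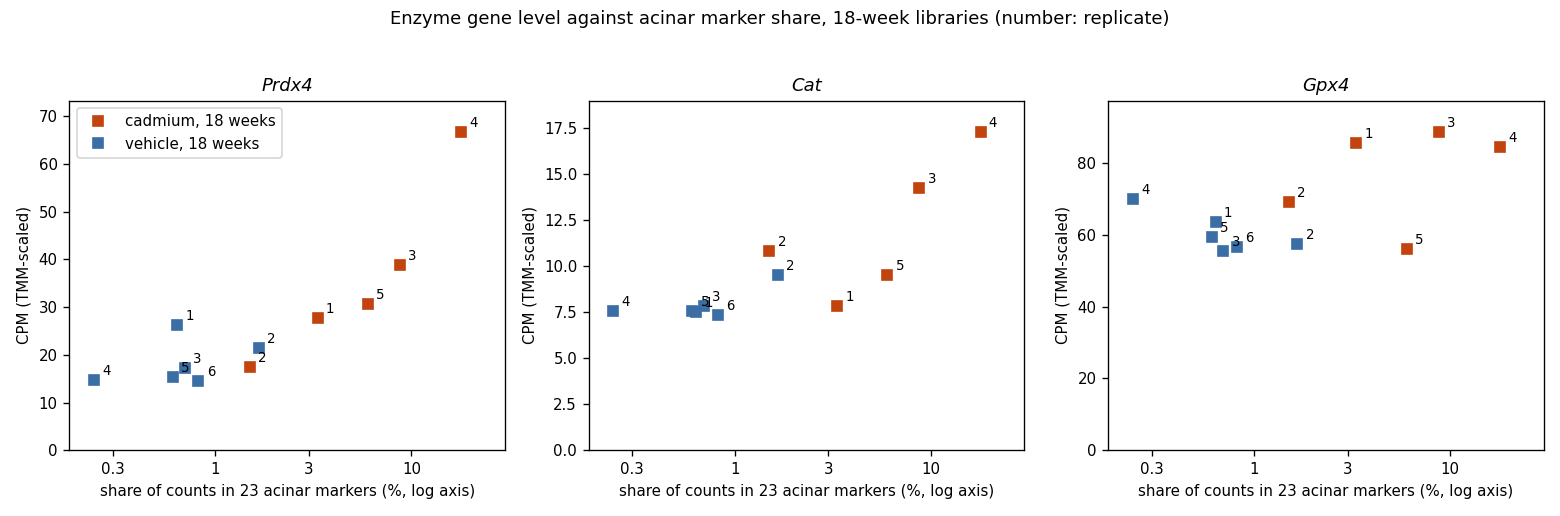
CPM of Prdx4, Cat and Gpx4 in the 18-week libraries against the share of counts in 23 acinar markers (log axis), with red squares for cadmium, blue squares for vehicle and the replicate number beside each. Cadmium 4 has the highest share (17.9%) and the highest Prdx4 and Cat, and cadmium 2 (1.5%) lies among the vehicle libraries in Prdx4.

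The count of 0 at 18 weeks changed with the fit, together with the number of all genes called. DESeq2 called Cat (adjusted p = 0.0371) among 770 genes, and an edgeR fit of all 30 libraries called Prdx4, Cat, Gpx4, Sod1 and Gpx1 among 2496 genes, against 75 genes by edgeR on the 18-week libraries alone. The fit of 30 libraries shares the spread of each gene among all groups, so its error does not rest on the 18-week libraries alone. Without cadmium 1, 2 or 5 in turn, the edgeR test called Cat, Prdx4 or Gpx4 (adjusted p = 0.0494, 0.0309 and 0.0385), among 195, 196 and 318 genes.

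After 6 weeks of cadmium, none of the 10 genes passed, with 0% of 18080 genes called in that comparison by edgeR (0 genes, 923 with an unadjusted p under 0.05, and 11 called by DESeq2). No member had an unadjusted p under 0.05, and 3 estimates were above and 7 below 0. Their median log2 fold change was -0.015, against -0.0019 over all genes. Precision was better than at 18 weeks for the abundant genes: the 95% intervals were -0.10 to 0.086 for Sod1, -0.063 to 0.13 for Sod2, -0.036 to 0.22 for Gpx3 and -0.21 to 0.067 for Gpx4. Prdx4 stood at 24.9, 26.8, 32.2 and 34.3 CPM in cadmium libraries 1 to 4, against 25.2, 29.2, 23.5, 23.2 and 28.0 CPM in vehicle libraries 1 to 5. Its log2 fold change of 0.19 ± 0.10 (SE, adjusted p = 0.919) was the largest positive one of the 10, and the 2 highest cadmium libraries were those with the highest acinar share (5.23 and 7.55%). With that share as a term in the fit, the Prdx4 estimate was -0.039 ± 0.081. Gpx1, at 63.0 ± 5.68 CPM with cadmium (SD, n = 4) and 68.6 ± 6.17 CPM with vehicle (SD, n = 5), and Gpx8, at 1.69 ± 0.127 CPM with cadmium and 1.96 ± 0.429 CPM with vehicle, had the lowest estimates, -0.13 ± 0.075 and -0.22 ± 0.18 (SE, adjusted p = 0.919 for both).

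After 96 hours of cadmium in culture, none of the 10 passed, and 0.00597% of 16743 genes were called (1 gene). The median log2 fold change of the 10 was 0.089, against -0.0022 over all genes. For the more abundant genes the intervals were narrow: the 95% intervals were -0.099 to 0.070 for Sod1, -0.12 to 0.031 for Sod2, -0.082 to 0.067 for Gpx3, -0.095 to 0.064 for Gpx4, -0.053 to 0.18 for Gpx1 and -0.034 to 0.26 for Prdx4. Cat stood at 16.3 ± 1.06 CPM with cadmium and 14.9 ± 2.27 CPM with vehicle (SD, n = 5 each), with an interval of -0.054 to 0.33.

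Gpx8 alone of the 10 had an unadjusted p under 0.05 in culture, among 920 such genes. It stood at 3.48, 5.14, 2.74, 3.36 and 4.37 CPM in cadmium cultures 1 to 5, against 1.98, 3.21, 2.34, 1.98 and 3.30 CPM in vehicle cultures 1 to 5. All but cadmium 3 lay above every vehicle culture. The log2 fold change was 0.58 ± 0.19 (SE, adjusted p = 0.888), on 20 to 143 counts per library over the whole series, and 1.62% of genes had a larger absolute change. Gpx8 overlaps Cdc20b on the opposite strand, which had 4 counts over all libraries. The other cysteine enzyme, Gpx7, stood at 1.96 ± 0.488 CPM with cadmium and 1.60 ± 0.549 CPM with vehicle, with an interval of -0.19 to 0.79.

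Stellate and fibroblast markers followed the order of Gpx8 in the cadmium cultures. Their summed level was 685, 1115, 458, 616 and 838 CPM in cadmium cultures 1 to 5, against 328, 741, 396, 484 and 641 CPM in vehicle cultures 1 to 5. The cadmium cultures had the same order by Gpx8 as by this sum. The vehicle cultures did not: Gpx8 was highest in vehicle 5 and the sum in vehicle 2, while vehicle 1 was lowest by both. Of the 10 markers 9 were higher with cadmium, 7 with an unadjusted p under 0.05 and none called, and all were detected in both groups. With their share of counts as a term in the fit, a step added after seeing the data, the Gpx8 estimate was 0.22 ± 0.13 (SE, adjusted p = 1).

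**Figure D3:**
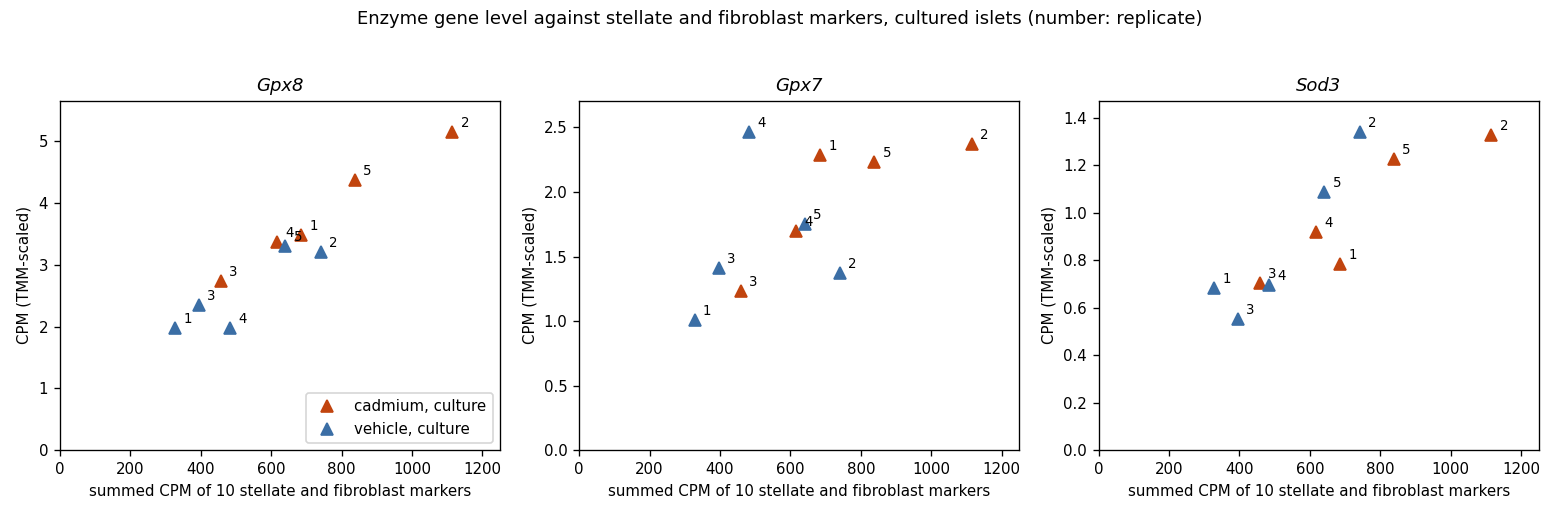
CPM of Gpx8, Gpx7 and Sod3 in the cultured islets against the summed CPM of 10 stellate and fibroblast markers, with red triangles for cadmium, blue triangles for vehicle and the replicate number beside each. Cadmium 2 has the highest marker sum (1115 CPM) and the highest Gpx8 (5.14 CPM), and vehicle 1 the lowest sum (328 CPM).

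**Figure D4:**
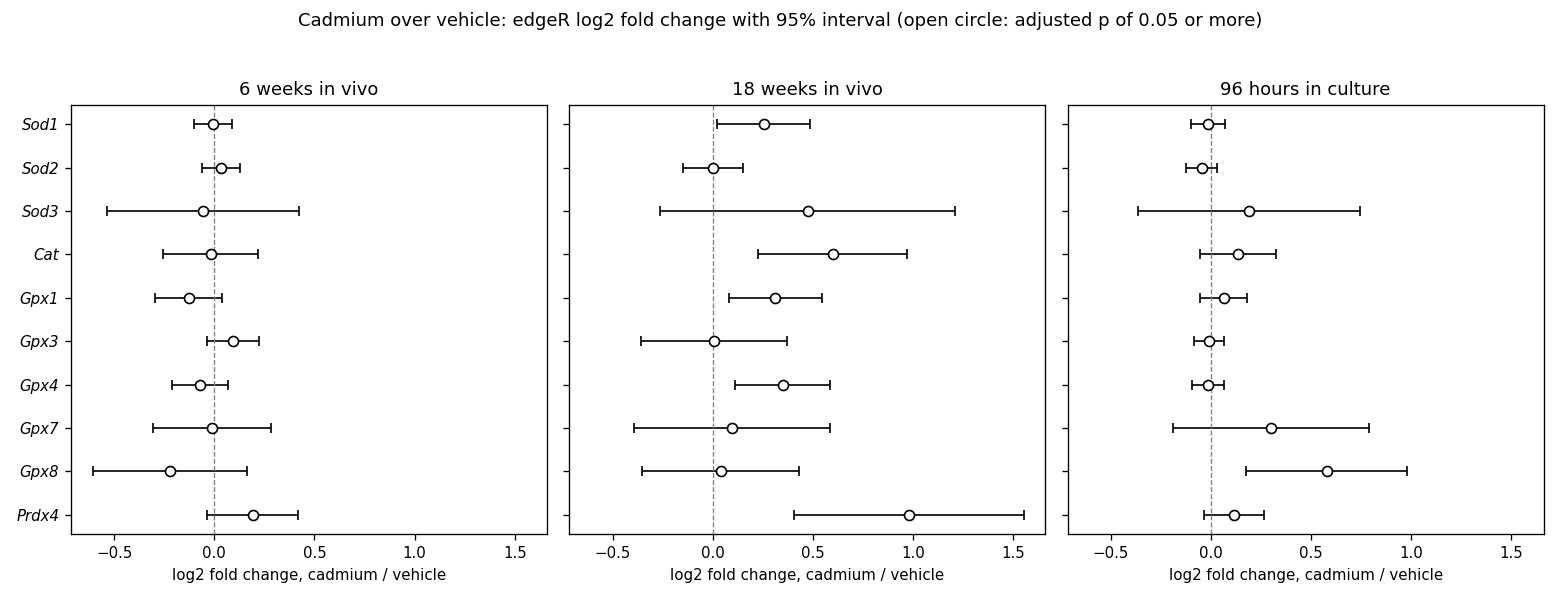
Log2 fold change of cadmium over vehicle for the 10 genes in the 3 settings, with 95% intervals from edgeR and one scale for all panels. Every circle is open, since no gene passed, and 5 intervals at 18 weeks and that of Gpx8 in culture lie wholly above 0.

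The difference between the cadmium effects of 2 settings, tested in 1 fit of all 30 libraries, passed for none of the 10 genes. This fit shares the spread of each gene among all groups, so the 18-week libraries also enter the error of culture against 6 weeks. At 18 weeks against 6 weeks 1.68% of 22721 genes were called. The differences with an unadjusted p under 0.05 were 0.41 ± 0.12 for Gpx4 (SE, adjusted p = 0.0636), 0.43 ± 0.13 for Gpx1 (adjusted p = 0.0712), 0.60 ± 0.20 for Cat (adjusted p = 0.0952), 0.77 ± 0.29 for Prdx4 (adjusted p = 0.134) and 0.26 ± 0.11 for Sod1 (adjusted p = 0.180), all on the log2 scale. These are the same 5 genes that stood out at 18 weeks, whose libraries enter both comparisons. Without the 3 shallow libraries, Gpx4, Gpx1 and Sod1 were called (edgeR adjusted p = 0.00101, 0.0289 and 0.00501), among 2546 genes against 382 with them. Culture against 18 weeks, with 0.0176% of genes called, gave -0.37 ± 0.11 for Gpx4 (adjusted p = 0.187), -0.85 ± 0.29 for Prdx4 (adjusted p = 0.223), -0.27 ± 0.11 for Sod1 (adjusted p = 0.282) and -0.46 ± 0.20 for Cat (adjusted p = 0.324). Culture against 6 weeks, with 0% called by edgeR (760 genes with an unadjusted p under 0.05, and 3 called by DESeq2), gave 0.79 ± 0.28 for Gpx8 (adjusted p = 1).

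The settings themselves differed far more than cadmium and vehicle did. Between vehicle islets at 18 and at 6 weeks 8 of the 10 genes passed, 3 higher and 5 lower, in a comparison that called 71.8% of 20551 genes, 35.9% higher and 35.9% lower. Between vehicle cultures and 6-week vehicle islets 7 passed, 3 higher and 4 lower, against 67.8% of 17605 genes, 33% higher and 34.8% lower. The shares of members are thus close to the shares of all genes. Duration, age, culture, sequencing depth and any batch go together in these comparisons and cannot be told apart. Markers of islet and other cell types moved too. Against 6 weeks, 5 of 10 beta cell markers were called lower and 1 higher at 18 weeks. In culture 6 of them were called lower and 1 higher. Alpha cell markers were called lower in 3 of 6 cases at 18 weeks, and higher in 3 and lower in 1 in culture. Of 5 delta and PP cell markers 4 were called lower at 18 weeks, and in culture 2 were called higher and 1 lower. All 23 acinar markers were called lower both at 18 weeks and in culture, with median log2 fold changes of -2.06 and -11 against 6 weeks. Of 10 stellate and fibroblast markers 9 were called lower at 18 weeks (181 to 264 summed CPM), while 5 were called higher and 3 lower in culture (328 to 741 CPM), against 297 to 499 CPM at 6 weeks. Endothelial markers were called lower in 6 of 10 cases at 18 weeks (460 to 570 CPM) and in 10 of 10 in culture (55.7 to 95.7 CPM), against 658 to 807 CPM at 6 weeks. At 18 weeks 10 of 11 macrophage and 9 of 10 ductal markers were also called lower. In culture 3 of 11 macrophage markers were called lower and 3 higher, and 7 of 10 ductal markers lower and 1 higher. Their part in the members' changes was not tested.

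Gpx4 showed the largest increase. It stood at 63.7, 57.6, 55.6, 70.1, 59.3 and 56.6 CPM in the 18-week and at 85.7, 78.7, 84.2, 82.7 and 84.8 CPM in the culture vehicle libraries, against 12.5, 12.99, 11.3, 11.4 and 11.4 CPM in those of 6 weeks. No library of either group came near the 6-week range, and the log2 fold changes were 2.31 ± 0.077 at 18 weeks (SE, adjusted p = 3.16e-12) and 2.83 ± 0.047 in culture (SE, adjusted p = 1.07e-14), both against 6 weeks. A larger absolute change was seen in 14.9% and 4.44% of all genes. Gpx4-ps2, a transcribed pseudogene of Gpx4 with 1426 counts over all libraries, had 6 to 90 counts in 18-week, 42 to 64 in culture and 11 to 24 in 6-week vehicle libraries. How reads that match both places were counted is not stated, so the Gpx4 level is uncertain to that extent.

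Gpx3 and Sod3, the extracellular enzymes, were the 2 genes that fell most. Gpx3 had 54.4 to 129 CPM (median 93.3) in 18-week and 208 to 225 CPM in culture vehicle libraries, against 365 to 411 CPM in those of 6 weeks. The 3 ranges did not overlap. Its log2 fold changes were -2.07 ± 0.17 at 18 weeks and -0.81 ± 0.041 in culture against 6 weeks (SE, adjusted p = 4.58e-08 and 2.15e-09), and 1.17 ± 0.16 in culture against 18 weeks (adjusted p = 9.23e-06). Sod3 had 0.265 to 0.687 CPM at 18 weeks and 0.551 to 1.34 CPM in culture, against 1.70 to 3.48 CPM at 6 weeks. Its log2 fold changes were -2.71 ± 0.28 and -1.57 ± 0.27 against 6 weeks (SE, adjusted p = 7.36e-07 and 0.000187). Sod3 rested on as few as 4 counts in a library.

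The intracellular dismutases rose together but by less. Sod1 had 116 to 168 CPM at 18 weeks and 132 to 139 CPM in culture, against 88.6 to 96.9 CPM at 6 weeks, with log2 fold changes of 0.52 ± 0.088 and 0.55 ± 0.034 (SE, adjusted p = 7.72e-05 and 1.41e-08). Sod2 had 78.4 to 96.1 CPM and 75.3 to 82.5 CPM, against 61.3 to 67.3 CPM at 6 weeks, with log2 fold changes of 0.35 ± 0.059 and 0.33 ± 0.036 (SE, adjusted p = 8.55e-05 and 4.29e-06). Both genes were above the 6-week range in every 18-week and culture vehicle library.

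Cat fell at 18 weeks and did not pass in culture. Its vehicle libraries stood at 7.33 to 9.50 CPM at 18 weeks and 11.9 to 18.0 CPM in culture, against 11.8 to 15.2 CPM at 6 weeks. The log2 fold change was -0.85 ± 0.098 at 18 weeks (SE, adjusted p = 1.91e-06), 0.13 ± 0.10 in culture (adjusted p = 0.276), both against 6 weeks, and 0.87 ± 0.11 in culture against 18 weeks (adjusted p = 3.29e-06). Gpx1 fell at 18 weeks and in culture against 6 weeks, with log2 fold changes of -0.42 ± 0.089 and -0.54 ± 0.066 (SE, adjusted p = 0.000631 and 9.73e-06). Prdx4 fell in both as well, with -0.52 ± 0.14 and -0.47 ± 0.073 (SE, adjusted p = 0.00318 and 7.78e-05). Gpx7 and Gpx8 passed in neither. Culture against 18 weeks called 5 of the 10, in a comparison that called 67.2% of 18449 genes, 30.6% higher and 36.6% lower. Sod3 (1.04 ± 0.32), Cat, Gpx3 and Gpx4 (0.43 ± 0.064) were higher in culture and Gpx1 lower (-0.22 ± 0.088, SE, adjusted p = 0.0345). The Gpx1 call was lost without 18-week vehicle 4 or 5 or culture vehicle 1, 2, 3 or 5 (adjusted p = 0.0557 to 0.119).

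**Figure D5:**
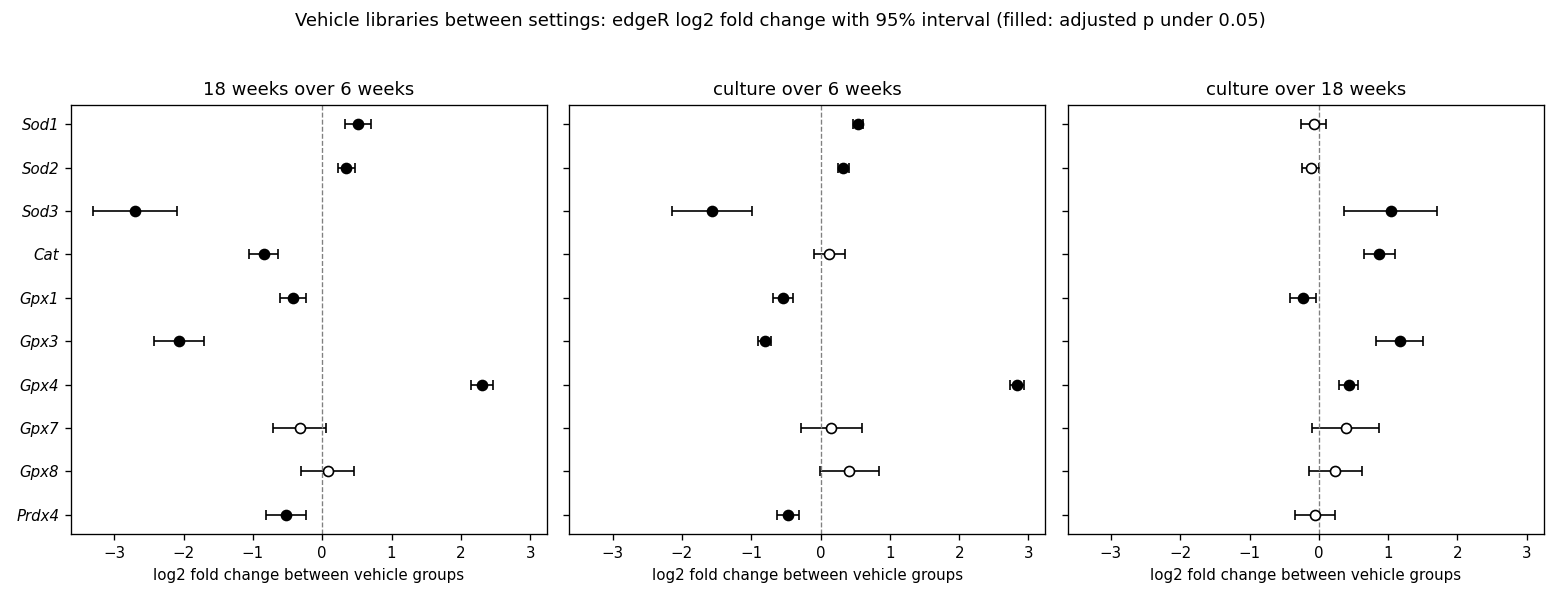
Log2 fold change between vehicle groups for the 10 genes, with 95% intervals from edgeR, filled where the adjusted p was under 0.05. Gpx4 lies at 2.31 and 2.83 in the panels against 6 weeks, Sod3 and Gpx3 lie below 0 in both, and Gpx7 and Gpx8 are open throughout.

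The genes whose levels followed each member most closely within groups were sought among 15878 expressed genes, by Pearson's r of log2 CPM over the 30 libraries after subtracting each group's mean. The libraries share depth and cell composition, so these values describe and are not tested. Prdx4 was followed by Ggh, a gamma-glutamyl hydrolase (r = 0.949), Tmed6, a p24 family protein of the secretory pathway (r = 0.937), and Tmem97 (r = 0.917). Gpx4 was followed by Ndufs8, a complex I subunit (r = 0.934), and the ribosomal protein gene Rps28 (r = 0.924), and Sod1 by Rpl41, Atp5k and Rps15 (r = 0.928, 0.905 and 0.902). Cat was followed by the transglutaminase gene Tgm2, the ceruloplasmin gene Cp and Cgnl1 (r = 0.854, 0.853 and 0.83), and Gpx3 by Cdadc1, Eef1a2 and Rbp4 (r = 0.878, 0.874 and 0.861). Gpx8 was followed by Dse, a dermatan sulfate epimerase, Prss23 and the collagen gene Col5a3 (r = 0.797, 0.749 and 0.749), and Sod3 by Sh3bp2, the collagen chaperone gene Serpinh1 and Yap1 (r = 0.83, 0.797 and 0.795). For Sod2 the closest was Mrfap1 (r = 0.839), for Gpx1 Plpp7 (r = 0.815) and for Gpx7 Nudt1 (r = 0.757). Among the 10 themselves Sod1 and Gpx4 were the closest pair (r = 0.755) and Sod2 and Gpx3 the most opposed (r = -0.403).

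Genes around these enzymes were read from 8 further lists. At 18 weeks of cadmium, 1 of 11 glutathione genes and 1 of 13 genes of oxidative folding in the endoplasmic reticulum passed, and none of 6 other peroxiredoxin and glutathione peroxidase genes, 15 thioredoxin system genes, 8 genes of metal and heme supply, 10 of selenoprotein synthesis, 12 sources of superoxide and peroxide and 11 NRF2 and FOXO regulators and NRF2 targets did. The list medians were 0.094, -0.019, 0.017, -0.014, 0.12, 0.047, 0.23 and 0.10 on the log2 scale, in the order named. The 2 called genes were Ggt1, a gamma-glutamyl transferase that cleaves extracellular glutathione, and Pdia2, a protein disulfide isomerase known from pancreas. Ggt1 had 4.41 to 59.3 CPM with cadmium and 1.12 to 4.77 CPM with vehicle, a log2 fold change of 3.22 ± 0.58 (SE, edgeR adjusted p = 0.0376). Pdia2 had 0.446 to 13.3 CPM with cadmium and 0.143 to 0.561 CPM with vehicle, a log2 fold change of 4.12 ± 0.81 (SE, edgeR adjusted p = 0.0473). With the acinar share as a term these were 1.24 and 1.44 (adjusted p = 1 for both), and both calls depended on single libraries while the estimates stayed at 2.45 to 3.61 and 3 to 4.43. Ggt1 did not pass without cadmium 3 or 4 or vehicle 1, 3, 4, 5 or 6, and Pdia2 without cadmium 3 or 4 or any 1 vehicle library (adjusted p up to 0.141 and 0.164). The copper carriers of SOD1 and of the secretory pathway, Ccs and Atox1, had 0.24 ± 0.081 and 0.34 ± 0.11 (SE, edgeR adjusted p = 0.169 and 0.157).

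In the 8 lists no gene passed at 6 weeks or in culture. At 6 weeks the smallest p in the glutathione list belonged to Slc7a11, the cystine importer (0.88 ± 0.28, SE, edgeR adjusted p = 0.919). In culture the smallest p among the sources of superoxide and peroxide belonged to Nox4, an NADPH oxidase (0.44 ± 0.17, SE, edgeR adjusted p = 0.888), whose estimate with the stellate and fibroblast share as a term was 0.16 ± 0.15.

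Between vehicle groups the same lists moved in both directions. In culture against 6 weeks, Prdx1, a cytosolic peroxiredoxin, rose by 1.26 ± 0.048 on the log2 scale (SE, edgeR adjusted p = 8.25e-11), Slc7a11 by 2.93 ± 0.20 (adjusted p = 4.94e-08) and Hmox1, heme oxygenase 1, by 1.94 ± 0.16 (adjusted p = 2.16e-07), while Txnip, the inhibitor of thioredoxin, fell by 2.65 (adjusted p = 7.18e-09). At 18 weeks against 6 weeks Prdx1 rose by 0.80 ± 0.10 (adjusted p = 4.69e-06), and 8 of 11 glutathione genes fell and 1 rose, where 71.8% of all genes were called, with a median of -0.53 against 0.00027 over all genes.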

How the data were processed

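The authors deposited 1 table of raw read counts by Ensembl gene ID for each of the 30 libraries, without normalization, per the file headers. Per the submitters' processing notes, cutadapt 1.13, STAR, HTSeq 0.6.1p1, DESeq2 and build mm10 were used upstream; the sources used here do not give the annotation release, strand setting or handling of multiply mapping reads. Coordinates and exon lengths are from GENCODE release M21 (mm10).

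Each comparison of 2 groups was fitted on its own libraries in edgeR 4.0.16 under R 4.3.3. Low genes were removed by filterByExpr (at least 10 counts, 15 in total), libraries were scaled by TMM, and the two-sided quasi-likelihood test was used with Benjamini-Hochberg adjustment over all genes tested and calls under 0.05. Differences between cadmium effects were contrasts in a fit of all 6 groups. CPM use TMM-scaled library sizes over the 30 libraries. The code was tested on simulated data. Alternatives were DESeq2 1.42.0, RLE scaling, no filter, all libraries in the fit, a replicate block, an acinar share covariate, and leaving out libraries.

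All 10 genes are named. From each other list, at most 4 called genes of smallest p in each direction, or 2 where none was called, could be named in a comparison, and the 3 genes most like each member, of which 1 is not reported here. The members and lists were chosen with earlier results of these data known. Same-numbered libraries did not deviate together in every pair of any comparison (r over 0.1), so the numbers were not taken to pair them. No 2 libraries of a group were alike within sampling noise (lowest chi-square 2.77 per degree of freedom over 61 pairs).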

Additional observations from a re-analysis of the deposited data

Results flagged for a closer look

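Of 60 groups of values (10 genes in 6 groups), 5 held a library whose gap to its nearest neighbour was large for its group by Dixon's criterion, and chance gives about 1 in 20. Prdx4 was 23.1 CPM in cadmium culture 2, above 18.1 to 19.5 CPM in the other 4. Sod2 was 61.3 CPM in vehicle library 3 of 6 weeks and 75.3 CPM in vehicle culture 2, each the lowest of its group. Gpx1 was 39.9 CPM in the same vehicle culture 2, also the lowest. Cat was 9.5 CPM in vehicle library 2 of 18 weeks, the highest of its group, and that library also had the highest acinar share among them (1.66%).

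Gpx8 lay on opposite sides of vehicle in culture and at 6 weeks, and passed in neither. All 5 cadmium cultures lay above the mean of the vehicle cultures, with a ratio of mean CPM of 1.49, and all 4 cadmium libraries of 6 weeks lay below the mean of their vehicle libraries, with a ratio of 0.862. The test of the difference between the 2 effects gave 0.79 ± 0.28 on the log2 scale (SE, edgeR adjusted p = 1). At 6 weeks all 10 stellate and fibroblast markers were lower with cadmium, none called (304 to 441 summed CPM with cadmium, 297 to 499 CPM with vehicle). In vehicle libraries 1 to 3 of 6 weeks the sum was 471 to 499 CPM and Gpx8 2.18 to 2.32 CPM, and in vehicle 4 and 5 the sum was 297 CPM and Gpx8 1.38 and 1.62 CPM. Their part in the Gpx8 values was not tested.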

How the results depend on the processing

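The counts of called genes among the 10 in the 3 comparisons of vehicle groups stayed within 1.5 times under every alternative. The group means of CPM stayed within 1 SD in all 360 recalculations. Most of these left out 1 library, which cannot move a mean by 1 SD of its own group. Only the recalculations with RLE scaling could have come out otherwise. The count for cadmium at 18 weeks was 5 with all 30 libraries in the fit, 1 with DESeq2 and 0 to 1 without single libraries. The number of all genes called there was 75, against 0 with the acinar share as a term or without the shallow libraries, 1 with a replicate block, 140 with no filter, 770 with DESeq2, 2496 with all 30 libraries and 0 to 318 without single libraries. The count for the cadmium effect at 18 weeks minus 6 weeks was 3 without the shallow libraries, 2 with DESeq2 and 0 to 4 without single libraries (4 without 18-week cadmium 5, 3 without cadmium 2, 2 without 18-week vehicle 4 or 6-week vehicle 4, 1 without cadmium 1 or 18-week vehicle 5). All genes called there were 382, against 2546, 1402 and, for those libraries in that order, 1694, 586, 1322, 895, 902 and 617. The count for culture minus 18 weeks was 2 without the shallow libraries, among 1057 genes against 4, and 0 to 1 without single libraries (1 without 18-week cadmium 5, among 358 genes). In culture, a replicate block called 1 of the 10 (Gpx8, adjusted p = 0.0221) and 223 genes, against 0 and 1 without it. There same-numbered libraries correlated by 0.0153 to 0.137, not all over 0.1, and 3 of 5 in each group correlated best with their own number, so the labels and this check do not establish pairs. The cause of these differences was not tested.

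Estimates near 0 changed sign. With the acinar share as a term, Gpx3 was -0.0474, Gpx7 -0.0805 and Sod2 -0.00782 at 18 weeks, and Gpx7 0.00812, Prdx4 -0.0393 and Sod1 0.00459 at 6 weeks. With a replicate block, Gpx7 was -0.00127 at 18 weeks and 0.0506 at 6 weeks, and Sod1 0.00437 at 6 weeks. For Sod2 at 18 weeks, leaving out the shallow libraries gave -0.0474, all 30 libraries -0.00479, DESeq2 -0.00353, no filter -0.00362 and RLE scaling -0.00447. With the stellate share as a term in culture, Gpx4 was 0.0268, Sod1 0.0309 and Sod3 -0.249. Sod1 in vehicle culture against 18 weeks was 0.0311 without the shallow libraries. Without single libraries, the ranges were -0.133 to 0.0299 for Cat, -0.0588 to 0.0534 for Gpx7, -0.0276 to 0.012 for Sod1 and -0.179 to 0.06 for Sod3 at 6 weeks; -0.113 to 0.119 for Gpx3, -0.102 to 0.118 for Gpx8 and -0.0465 to 0.0341 for Sod2 at 18 weeks; -0.0221 to 0.00869 for Gpx3, -0.0332 to 0.0102 for Gpx4 and -0.0406 to 0.00545 for Sod1 in culture. Between vehicle groups they were -0.0528 to 0.28 for Gpx7 in culture against 6 weeks, -0.0133 to 0.15 for Gpx8 at 18 against 6 weeks and -0.113 to 0.0671 for Prdx4 in culture against 18 weeks. Depth limits Sod3, Gpx7 and Gpx8 most, with 4, 7 and 20 counts in their lowest library.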
